A study of Drosophila melanogaster with 12 samples.

Results

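Homeobox genes outside the Hox complexes were examined for occupancy by the Hox protein Ultrabithorax (Ubx) in the haltere disc of Drosophila melanogaster. The list holds 40 genes of the 13946 protein-coding genes in a Release 6 gene table, and all 40 were matched by symbol. They were chosen by name as homeobox genes used mostly in the embryo, the head and the nervous system. The ChIP-seq libraries came from haltere imaginal discs, the larval tissue from which the balancing organs behind the wings form. The discs were taken from wild-type larvae (strain Canton S) at the wandering L3 stage. Chromatin was precipitated with a polyclonal antibody to the N-terminal part of Ubx in 3 independent biological replicates. Each replicate gave a list of peaks, and a consensus list holds the stretches covered in at least 2 of the 3 replicates. The inputs and the wing disc libraries of the series are not analysed here. The tissue label could not be checked against marker genes, since peak lists hold no expression values.

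A homeobox gene encodes a transcription factor with a homeodomain, a DNA-binding fold that in most families reads short sites rich in A and T. Hox genes such as Ubx give segments of the body their identity, and Ubx turns the dorsal appendage of the third thoracic segment into a haltere. The homeobox genes outside the Hox complexes include regulators of single organs and cell types. Examples are ey and toy, the Pax6 genes of the eye, tin, the heart gene, and repo, a glial gene. Binding of a Hox protein near such a gene in a disc says nothing by itself about whether the gene is expressed there.

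A consensus region lay in the gene or within 2 kb of it for 7 of the 40 genes (17.5%). These were so, Optix, NK7.1, Dr, lbl, unc-4 and OdsH. Over all protein-coding genes the share was 7.64%. Homeobox genes of the list are long, with a median of 8.98 kb against 2.16 kb for all protein-coding genes, and in these data the longest genes most often had a region. Other protein-coding genes in the same deciles of gene length had a region in 15.1% of cases, which would correspond to 6.06 of 40 genes. The difference was 2.35 percentage points, and 1 gene makes up 2.5% of the list. The share of these homeobox genes with a consensus region was therefore near that of other genes of their length. No test over genes was made, because the list was chosen by name with earlier results of these data known.

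**Figure D1:**
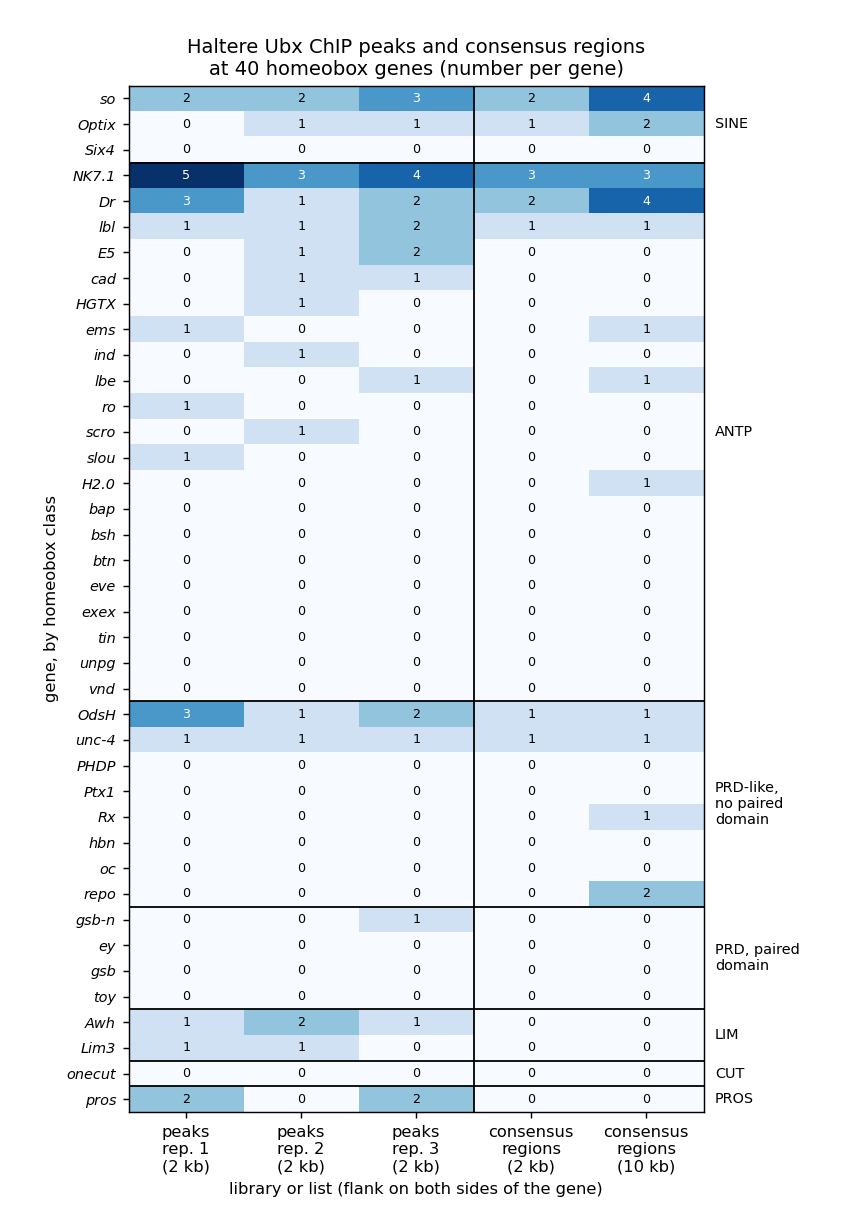
Number of haltere Ubx ChIP peaks in each replicate within 2 kb of each of the 40 homeobox genes (rows, by homeobox class), and number of consensus regions with 2 kb and 10 kb flanks; darker blue is a higher number. Only 7 rows have a consensus region with 2 kb flanks, and 20 rows have no peak in any replicate at that distance.

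The SINE class, the relatives of sine oculis, held a region at 2 of its 3 genes, where genes of the same length deciles would give 0.449. In so, the sine oculis gene needed for eye formation, 2 regions lay inside the gene on 2R, both overlapped by all 3 libraries. The first, from 7429393 to 7429788, had an authors' fold enrichment of 3.40 in replicate 1, against 8.39 in replicate 2 and 7.57 in replicate 3. By fold enrichment it stood at the 10.2th percentile in replicate 1 and at the 96.7th and 90.3th in replicates 2 and 3. By −log10 q-value the same peaks were high in all 3 lists, at the 85.9th, 96.8th and 94.1th percentile. The second, from 7430776 to 7431046, was weak throughout, with folds of 3.46, 3.04 and 3.03. It ranked 918th of the 927 regions found in all 3 libraries by mean percentile of fold enrichment. Optix, a related gene of eye and wing patterning, had 1 region, 150 bp outside the gene on 2R from 8030926 to 8031133. That region came from replicates 2 and 3, with folds of 2.97 and 5.24, and no peak was called there in replicate 1. No peak was called within 2 kb of Six4, a mesoderm and gonad gene and the third SINE gene of the list.

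The ANTP class is the largest group, with 21 genes that include the NK genes, and 3 of them had a region. Genes of the same length deciles would give 2.5. NK7.1 had the most regions of the list, 3, all inside the gene on 3R. The widest, from 14363059 to 14363681, measured 623 bp and had folds of 8.48, 7.65 and 6.53 in replicates 1, 2 and 3. It lay above the 83rd percentile of fold enrichment in every library, and ranked 116th of the 927 regions found in all 3. The region from 14354060 to 14354405 was also found in all 3 libraries, with folds of 3.92, 5.15 and 7.99. The narrowest region, 125 bp wide and starting at 14353595, was covered by replicates 1 and 3 only, with folds of 3.92 and 4.07.

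Dr, the muscle segment homeobox gene of the dorsal neuroectoderm and of muscle precursors, had 2 regions on 3R. One lay 79 bp outside the gene, from 29556013 to 29556307, and was found in all 3 libraries with folds of 4.74, 2.98 and 3.96. The other lay inside it, from 29563265 to 29563421, in replicates 1 and 3 with folds of 4.89 and 3.50. Neither was strong: the first ranked 874th of the 927 regions in all 3 libraries. Replicate 1 had a stronger peak inside Dr, with a fold of 7.88, that lay 183 bp from the nearest peak of another library and so joined no consensus region.

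The region at lbl, a ladybird gene of muscle and heart identity, had the highest fold enrichment of any peak within 2 kb of the list, in any library. It lay 122 bp outside the gene on 3R, from 21434255 to 21434525. The fold was 12.8 in replicate 1, at the 99.6th percentile of that list, and 7.63 in replicate 3, at the 90.5th percentile. Replicate 2 had no peak there. By mean percentile it ranked 4th of the 1244 regions found in exactly 2 libraries. The same region lay 7.05 kb from lbe, the neighbouring ladybird gene, and was the only region shared by the 10 kb windows of 2 listed genes among the 10 neighbouring or related pairs compared. Some of these pairs could share none. The genes vnd and scro lie on different chromosomes. Gaps of 269 kb between ey and toy, 102 kb between lbe and slou and 26.9 kb between ems and E5 keep their windows apart.

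Of the 8 PRD-like genes without a paired domain, unc-4 and OdsH had a region, where genes of the same length deciles would give 1.41. Both lie on X, with a gap of 12.3 kb and no other protein-coding gene between them, and OdsH, the Odysseus gene, is known for its part in male sterility of species hybrids. The unc-4 region, from 17768209 to 17768358, lay 211 bp outside the gene and had folds of 4.38, 4.05 and 6.29 in replicates 1, 2 and 3. Its 3 peaks were between 124 and 171 bp wide, started at 3 different positions and all ended at the same base. The OdsH region lay near the middle of the gene, from 17802498 to 17802762, with folds of 6.39, 5.16 and 6.55. It was at the 87.9th, 76.4th and 84.0th percentile of fold enrichment in the 3 lists, and at the 89.4th, 71.8th and 75.7th percentile of −log10 q-value. No peak was called within 2 kb of the other 6 PRD-like genes: oc, the orthodenticle gene of head development, the brain gene hbn, Rx, Ptx1, repo and PHDP.

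**Figure D2:**
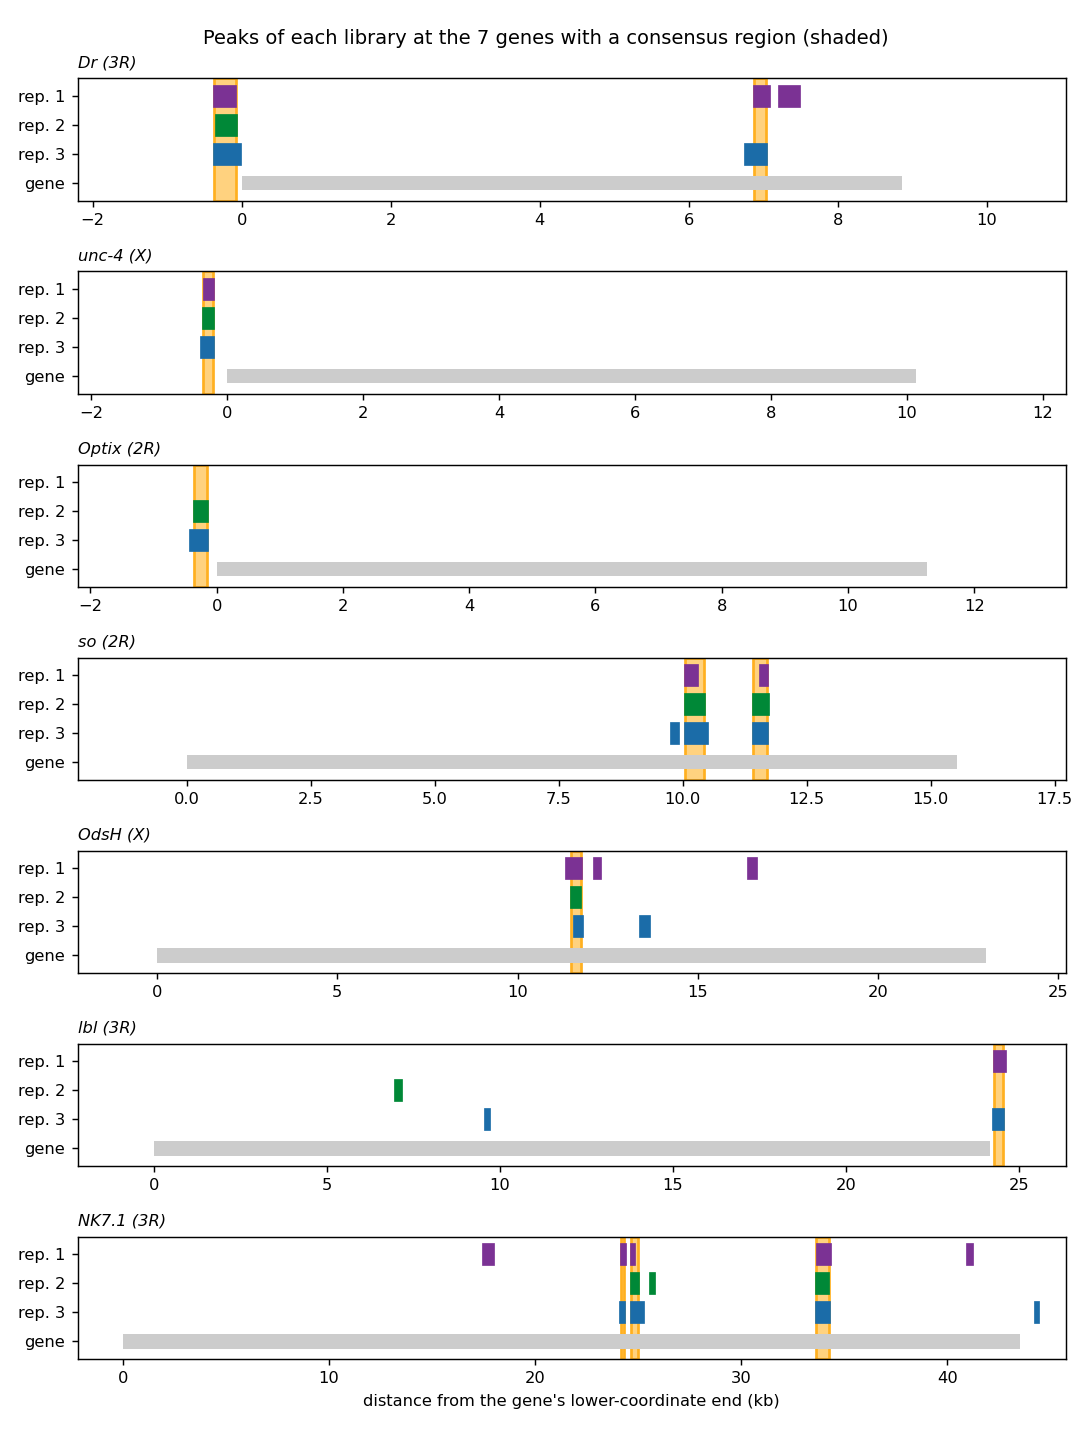
Peaks of replicates 1, 2 and 3 (coloured bars, outlined so that narrow peaks stay visible) along the 7 genes with a consensus region within 2 kb (shaded), by distance in kb from the gene's end at the lower coordinate; the grey bar is the gene. At unc-4, Optix and lbl the only region lies outside the gene, between 122 and 211 bp away, while at OdsH, so and NK7.1 every region within 2 kb lies inside it.

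The paired-domain genes gsb, gsb-n, ey and toy had no consensus region within 10 kb. Neither did the LIM genes Awh and Lim3, the CUT gene onecut or the PROS gene pros, a regulator of neural precursor division. Genes of the same length as the 4 paired-domain genes would give 0.722 genes with a region within 2 kb, so a count of 0 is not far from what their length gives.

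The 11 regions within 2 kb of the list were 0.507% of the consensus list. In all 11 the listed gene was the nearest protein-coding gene, and 9 had no other protein-coding gene within 2 kb. The exceptions were the first so region, with CG11145 within 2 kb, and the widest NK7.1 region, with Dnaaf5. Inside the gene body lay 7 of the 11, and the other 4 were between 79 and 211 bp outside it. Counting the gene body alone, 4 of the 40 genes (10%) had a region, against 12.4% at the same length and 4.85% of all protein-coding genes. All 3 libraries overlapped 7 of the 11 regions (63.6%), against 42.7% of all 2171 consensus regions. These 7 lay at 5 genes, so, NK7.1, Dr, unc-4 and OdsH, which is 12.5% of the list, against 7.86% of other genes of the same length deciles and 3.53% of all protein-coding genes. At least 2 regions were found at 3 listed genes (7.5%), against 6.83% at the same length and 3.06% of all. Without replicate 3, 7 regions were found by both remaining libraries in place of 11.

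The listed genes with a region were long. All 7 belonged to the longest 2 deciles of protein-coding genes, and measured between 8.86 kb (Dr) and 43.5 kb (NK7.1). In the longest decile 4 of 15 listed genes had a region (26.7%), against 28.8% of the other genes. In the decile below it the count was 3 of 8 (37.5%), against 11.8%. None of the 17 shorter genes had one, where other genes of their lengths had one in 4.73% of cases. Some long listed genes had no region within 10 kb. Examples are pros, the longest of the list at 79.1 kb, and scro, a brain gene of 33.9 kb.

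**Figure D3:**
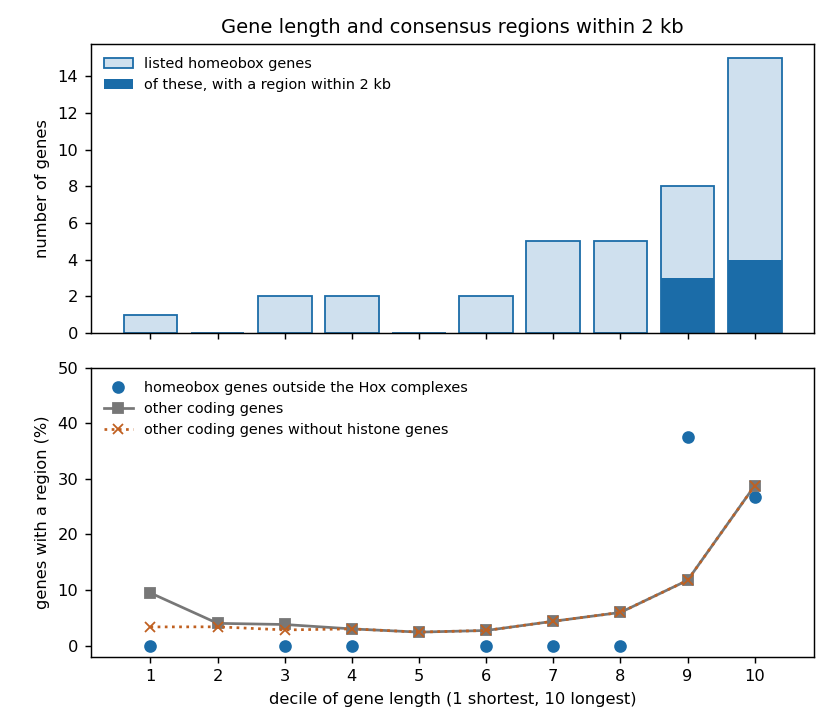
Top, number of listed homeobox genes in each decile of gene length over all protein-coding genes (light) and the number with a consensus region within 2 kb (dark). Bottom, the percentage of listed genes (circles) and of other protein-coding genes (squares; crosses without the repeated histone genes) with such a region: other genes reach 28.8% in the longest decile, and listed genes have regions only in deciles 9 and 10.

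Counted by the setting in which the genes are best known, regions were spread thinly. Of 9 genes of the eye and head, so and Optix had one (22.2%), against 21.8% at the same length. Of 15 genes of the nervous system, unc-4, OdsH and NK7.1 had one (20%, against 16.8%), and of 8 genes of muscle and mesoderm, Dr and lbl had one (25%, against 9.51%). The 7 genes grouped under segmentation and body axis had none, against 7.67%. This last group is eve, gsb, gsb-n, cad, ems, E5 and btn, with a median length of 2.77 kb. Counting btn, a mesodermal gene, under muscle and mesoderm instead gave 2 of 9 (22.2%, against 9.51%) there and 0 of 6 (against 7.37%) for segmentation and body axis, a grouping tried after the data were seen. Awh, used in histoblasts and salivary primordia, had no consensus region.

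With 10 kb on both sides, 12 of the 40 genes (30%) had a consensus region, against 24.3% of other genes of the same length deciles and 17.7% of all protein-coding genes. The 5 genes added were Rx, repo, H2.0, lbe and ems. Just outside the 2 kb limit stood Rx, whose region lay 2.44 kb away, while the region farthest outside a gene within the limit was that of unc-4 at 211 bp. The Rx region, on 2R from 20914123 to 20914314, was found in all 3 libraries with folds of 6.39, 5.25 and 8.13, above the 78th percentile in each. It was stronger by mean percentile (86.2) than 9 of the 11 regions within 2 kb. Beyond the regions already named, so gained 2, Dr 2 and Optix 1 at this distance.

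Of the 21 regions within 10 kb, 17 had a listed gene as their nearest protein-coding gene. The exceptions were both regions at repo, which lay inside 14-3-3epsilon, the region at H2.0, inside CG9107, and 1 region 5.09 kb from so, which was nearer to CG1701. For ems, a head gap gene, the only region lay 9.09 kb away, in replicates 1 and 3 with folds of 2.98 and 3.45.

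The median distance from a listed gene to its nearest consensus region was 39.3 kb, against 42.4 kb over all protein-coding genes. Of the 40 genes, 20 were nearer than the median of other genes of their length decile, and 20 were not. The farthest were scro at 540 kb, toy at 462 kb, vnd, a gene of ventral neuroblast identity, at 204 kb, and Awh at 186 kb. Per 100 kb of gene and 2 kb flanks there were 1.59 pairs of a gene and a region in the list. Over all protein-coding genes there were 1.47. A region within 2 kb of several genes, and any stretch where their windows overlap, counted once for each gene. The 2171 consensus regions thus gave 2254 pairs over all protein-coding genes.

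Single libraries gave more hits than the consensus list. A peak lay within 2 kb of 12 listed genes in replicate 1, 14 in replicate 2 and 13 in replicate 3, a mean of 13 ± 1 (SD, n = 3). As shares these were 30%, 35% and 32.5%, against 25.0%, 18.1% and 25.8% of other genes of the same length deciles and 11.8%, 9.31% and 14.0% of all protein-coding genes. The list exceeded its length-matched share in each library, by 5.01, 16.9 and 6.71 percentage points (9.54 ± 6.42, SD, n = 3). Replicate 2, the library with the fewest peaks, had the largest difference. Any library had a peak at 20 of the 40 genes (50%), against 37.9% at the same length and 21.0% of all.

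Peaks in all 3 libraries were found at 7 genes (17.5%), against 10.8% at the same length and 4.61% of all protein-coding genes. They were so, unc-4, OdsH, NK7.1, Dr, lbl and Awh. At Awh, a LIM homeobox gene, the peaks did not coincide. Replicate 1 had 1 peak inside the gene, replicate 2 had 2 inside it and replicate 3 had 1 lying 1067 bp outside it, and the closest peaks of different libraries were 1.02 kb apart. Its folds were 4.90 in replicate 1, 3.27 and 3.58 in replicate 2 and 4.003 in replicate 3.

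In all, 13 genes had a peak within 2 kb but no consensus region there. Of the list, 50% had a peak in any library and 17.5% a consensus region. For other genes of the same length deciles these shares were 37.9% and 15.1%, and for all protein-coding genes 21% and 7.64%. Lone peaks were thus also found at many other genes. In 8 of the 13 genes the peaks came from 1 library: gsb-n, lbe, scro, ind, HGTX, slou, ro and ems. In 4 genes, Lim3, cad, E5 and pros, they came from 2 libraries that did not overlap. Lim3, which sets motor neuron subtype, had peaks in replicates 1 and 2 that lay 15.6 kb apart. In cad, the caudal gene of the posterior body, the peaks of replicates 2 and 3 were 6.05 kb apart. The gap was 14.8 kb at pros, where replicates 1 and 3 had 2 peaks each. The strongest of these lone peaks was that at gsb-n in replicate 3, with a fold of 6.91 at the 86.6th percentile of its list. It lay 44.0 kb from the nearest peak of another library. At scro and ind, which like vnd act in the nervous system, a single weak peak was called in replicate 2, with folds of 3.17 and 2.98.

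No peak was called in any library within 2 kb of the other 20 genes. They include eve, a pair-rule segmentation gene, the Pax6 genes ey and toy, the heart and gut muscle genes tin and bap, the head gene oc, the glial gene repo and the motor neuron gene exex. The others were gsb, vnd, Six4, Ptx1, Rx, hbn, PHDP, H2.0, unpg, btn, bsh and onecut. The limit used to call peaks is not given in the sources used here. The lowest −log10 q-values in the lists of replicates 1, 2 and 3 were 2.00, 2.04 and 2.01, near a q-value of 0.01. Since the depth of the libraries is also unknown, a weak site could be missed at a gene with no peak.

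The peaks within 2 kb of the listed genes numbered 22 in replicate 1, 18 in replicate 2 and 23 in replicate 3. Of these, 45.5%, 44.4% and 47.8% overlapped a consensus region, a mean of 45.9 ± 1.74% (SD, n = 3). Over all peaks of each library the shares were 48.7%, 73.9% and 53.4%, a mean of 58.6 ± 13.4%. The largest gap was in replicate 2, where 8 of 18 peaks at listed genes were shared with another library. The peaks of the list spanned folds of 3.40 to 12.8 in replicate 1, 2.97 to 8.39 in replicate 2 and 2.46 to 7.99 in replicate 3. Their median sat at the 61.8th percentile of fold enrichment in replicate 1, the 29.2th in replicate 2 and the 44.0th in replicate 3 (45.0 ± 16.4, SD, n = 3), with no common direction across libraries.

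Peaks of the list that overlapped a consensus region had a median percentile of 56.6 in replicate 1, 63.1 in replicate 2 and 81.8 in replicate 3. All consensus peaks of those lists had medians of 59.6, 59.8 and 67.9. The difference went both ways, and the means of 67.2 ± 13.1 and 62.5 ± 4.72 (SD, n = 3) differed by less than the spread between the replicates of the list's own value. The list's peaks outside consensus regions had medians of 63.4, 25.9 and 43.2, against 42.2, 28.9 and 34.3 for all such peaks.

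**Figure D4:**
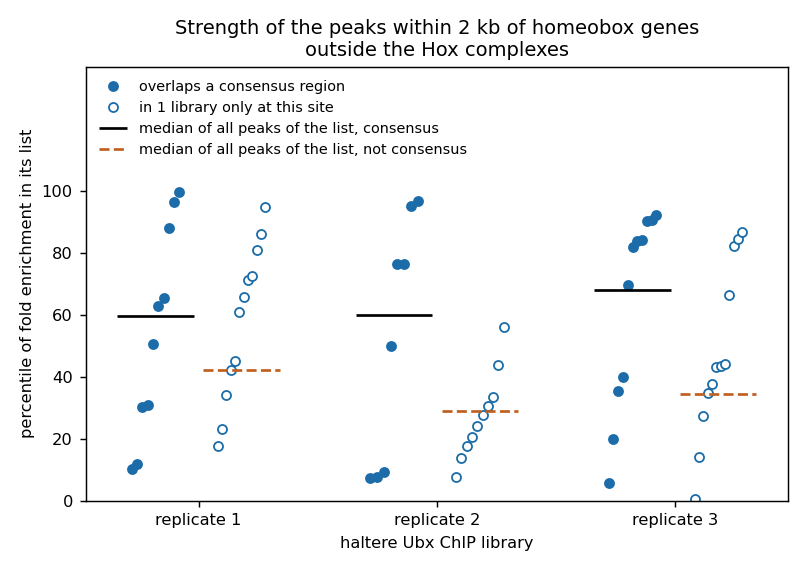
Percentile of the authors' fold enrichment within its own list for every peak within 2 kb of a listed gene, by replicate; filled circles overlap a consensus region, open circles do not, and lines are the medians of all such peaks of that list. The filled circles run from below the 12th percentile to above the 92nd in each replicate.

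Several listed genes lie side by side. The NK cluster on 3R holds tin, bap, lbl, lbe and slou together with C15, and from tin to slou it spans 178 kb. There were 3 consensus regions in this stretch. One was the region beside lbl. The other 2 lay 39 bp apart, and their nearest protein-coding gene was Fancm, at 4.18 and 4.37 kb. Both were more than 8 kb from C15 and more than 45 kb from lbe, the listed gene nearest to them. One of them, starting at 21491626, came from replicates 1 and 2, and the other, starting at 21491815 and 26 bp wide, from replicates 1 and 3. The whole cluster held 5 peaks of replicate 1, 4 of replicate 2 and 5 of replicate 3. The pairs gsb with gsb-n and tin with bap had no consensus region within 10 kb of either gene. The stretch from Rx to hbn, 44.2 kb long, held no peak in any library, so the region beside Rx lies on the side away from hbn.

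The list was set beside 2 other lists of homeobox genes. Of 21 homeobox genes with known roles in imaginal discs, 13 (61.9%) had a consensus region within 2 kb, against 20.9% at the same length. Of 12 homeobox genes of the Hox complexes, 7 (58.3%) did, against 18.8%. A region between pb and zen2 counted for both of these genes. The Hox complex count was 5 when each region went to its nearest gene body, and also without replicate 1 or without replicate 3. The margin over genes of the same length was 41.0 and 39.5 percentage points for these lists and 2.35 for the genes examined here. In the disc list 10 of 21 genes (47.6%) had at least 2 regions, against 9.88% at the same length. The Hox cofactor gene hth had 12, zfh2 had 6, aristaless (al) had 4, and inv, ara and Distal-less (Dll) had 3 each. All 3 libraries overlapped 3 of the regions at Dll, 1 at ara and none at inv. In the Hox complex list Ubx had 11 and Antp 8. Pairs of a gene and a region per 100 kb were 6.35 in the disc list, 6.10 in the Hox complex list and 1.59 in the list examined here. A few genes carried much of this: Ubx and Antp held 19 of the 24 pairs of a gene and a region in the Hox complex list, and hth 12 of the 42 in the disc list. Without these genes the densities were 5.71 in the disc list and 2.44 in the Hox complex list. Within the disc list, ct, Lim1, ap and pdm2, each over 20 kb long, had none. In single libraries the margins were 37.99 ± 10.2 percentage points for the disc list and 41.0 ± 5.02 for the Hox complex list, against 9.54 ± 6.42 for the genes examined here (SD, n = 3 libraries each). The lists were chosen by name, and many of their genes were known to be bound, so these counts are a description. They do not divide homeobox genes into those with and without disc roles. The list examined here also holds genes of the eye, and Optix, a gene of eye and wing patterning.

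**Figure D5:**
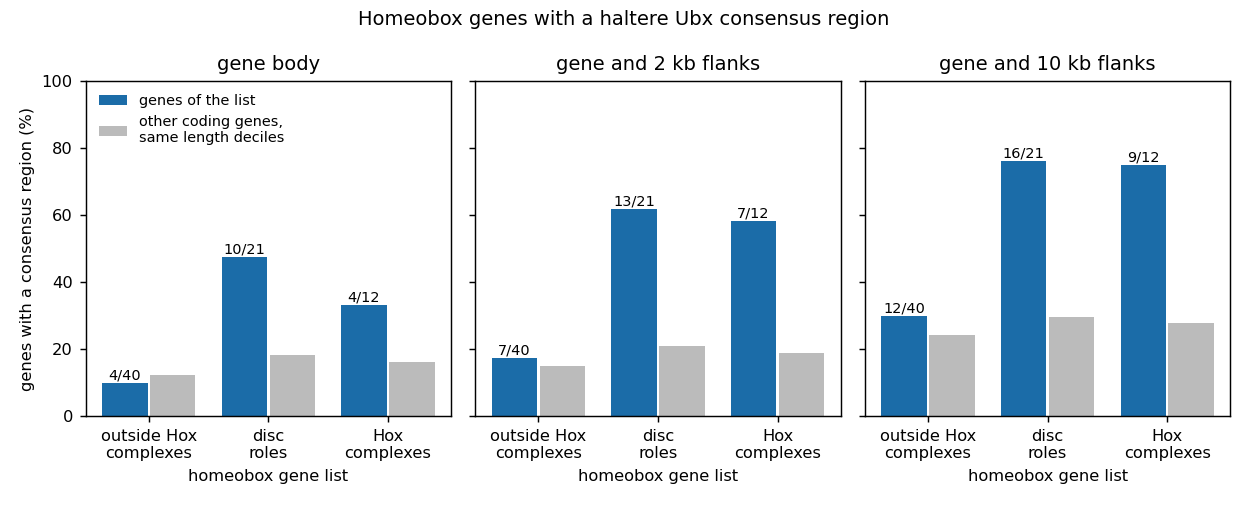
Percentage of genes with a haltere Ubx consensus region in the gene body, with 2 kb flanks and with 10 kb flanks, for the homeobox genes outside the Hox complexes examined here, homeobox genes with disc roles and homeobox genes of the Hox complexes (blue, with counts), beside other protein-coding genes of the same length deciles (grey). For the genes examined here the bars are close at every flank (17.5% beside 15.1% at 2 kb), and below their length-matched share in the gene body.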

How the data were processed

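Ubx ChIP-seq peak lists of 3 haltere disc replicates and 1 consensus list were used. Samples were grouped by title. The submitters' processing notes name Trimmomatic 0.36, BWA, MACS2 and the build BDGP6; options and the control are not given in the sources used here. Each deposited list gives per peak a score, the fold enrichment as a linear ratio and −log10 p and q values, all as the authors deposited them, and these were only ranked within a list. Read counts, and so depth, are unknown.

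Gene positions came from the NCBI RefSeq table of Release 6, the same assembly, which gives no strand or exons. Positions are 1-based. A region or peak belonged to a gene when it shared at least 1 bp with the gene plus 2 kb on both sides (10 kb as a second setting). The 2171 stretches covered by at least 2 libraries equalled the deposited consensus regions. The length-matched share is the mean over listed genes of the share among other protein-coding genes of the same length decile (10 deciles, 13946 genes on 2L, 2R, 3L, 3R, 4, X and Y). Interval code was tested on simulated data. Python 3.11.15, numpy 2.4.6 and pandas 2.3.3 were used. Members, lists, classes and settings were chosen with earlier results of these data known. Every listed gene is named; genes of the other lists are given by counts, with those holding most regions, and the long ones without a region were picked after their values were seen. Motif content and sequences were not analysed here.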

Additional observations from a re-analysis of the deposited data

How the results depend on the processing

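With the gene body only, 4 listed genes and 7 regions were counted, 3 genes had a region in all 3 libraries, 4 Hox complex genes had a region, and the difference from genes of the same length turned to -2.38 percentage points; Optix, unc-4 and lbl were lost, since their regions lie outside the gene. With 10 kb flanks, 12 genes and 21 regions were counted. Keeping the strongest 50% of each list gave 6 regions and 3 genes with a region in all 3 libraries. Without length matching the difference was 9.88 percentage points; all other settings for it gave 2.54 to 5.73, with histone genes left out of the background (2.55, chosen after seeing the data) among them. The mean number of listed genes with a peak per library was 8.33 in the gene body, 20 at 10 kb and 6.67 in the strongest 50%, whose median percentile was 77.7 by construction.

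Leaving out each replicate in turn gave 5 to 6 genes and 7 to 10 regions, the fewest without replicate 3; lbl was lost without replicate 1, Optix without replicate 2 and both without replicate 3. At single genes, 21 counts moved by more than 1.5 times, 8 upward at 10 kb and 13 downward elsewhere. No paired analysis was possible because no second group with the same replicate numbers was analysed here. Unknown depth limits what an absent peak can show.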

Other observations

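By chromosome arm, the listed genes with a consensus region within 2 kb were 3 of 14 on 3R, 2 of 9 on 2R and 2 of 4 on X, and none of 6 on 3L or of 4 on 2L. The shares over all protein-coding genes were 6.33% on 3R, 7.997% on 2R, 6.55% on X, 7.16% on 3L and 10.6% on 2L. These arm shares include the 111 repeated histone genes of the table. Leaving histone genes out lowered the share of other genes in the shortest length decile from 9.48% to 3.37%. Arm shares without them were not computed, so the arms cannot be ranked from these values. Chromosome 4 carries ey, toy and onecut, 3 of the list's regulators of eye and neurons. It held 7 consensus regions in all, within 2 kb of 2 of its 80 protein-coding genes (2.5%), and 6, 7 and 10 peaks in replicates 1, 2 and 3. Of these 7 regions, 6 lay within 2 kb of zfh2, a homeobox gene of the disc list. The nearest consensus region lay 70.7 kb from onecut, 170 kb from ey and 462 kb from toy.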
